A study of Mus musculus with 16 samples.

Results

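A set of 10 heat shock chaperones of the cytosol and the mitochondria was followed in 2 subsets of mouse CD4+ T cells after treatment with venetoclax, a small molecule that occupies the BH3-binding groove of the survival protein BCL-2 and inhibits it. The genes were chosen by symbol as Hspa8, Hspa1a, Hsph1, Dnaja1, Dnajb1, Stip1, Hsp90aa1, Hsp90ab1, Hspd1 and Hspe1. All 10 were measured in both subsets, among 11464 genes measured in either. The subsets were regulatory cells (Treg, CD4+ FOXP3+) and conventional cells (Tcon, CD4+ FOXP3-), sorted from spleen and lymph node. The 4 groups were Treg from mice given 50 mg/kg venetoclax for 14 days, Treg from vehicle mice of the same duration, Tcon from venetoclax mice and Tcon from vehicle mice, with 4 libraries each and 16 in all. Every mouse, vehicle mice included, carried the FOXP3-IRES-GFP allele (the strain is B6.Cg-Foxp3tm2Tch/J), which marks Foxp3-expressing cells with a green fluorescent reporter, with the genotype given as WT. The labels used here give no age, sex or number of animals, so the libraries, labelled as biological replicates, are the units of every test. The libraries hold RNA of whole sorted populations, so fewer cells of a kind and less RNA per cell cannot be told apart.

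Heat shock proteins are molecular chaperones that bind unfolded stretches of other proteins. HSP70 proteins hold such stretches with the energy of ATP, J proteins bring them clients and speed up their ATP use, and HSP110 proteins reset them by exchanging the nucleotide. The adaptor HOP passes clients from HSP70 to HSP90, which matures kinases and receptors, in T cells the kinase LCK among them. In the mitochondrial matrix the HSP60 ring with its HSP10 lid folds imported proteins. Many of these genes carry heat shock elements in their promoters, repeats of the unit nGAAn in alternating direction that the factor HSF1 binds in stressed cells.

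Promoter windows were searched for such repeats as a description of their sequence. What part the repeats have in the changes with venetoclax was not tested. RefSeq promoter windows on GRCm38.p6 (250 bases before to 50 after each start site) matched 7 of the 10 genes with 12 windows, those of Hsph1, Dnaja1, Dnajb1, Stip1, Hspa1a, Hspd1 and Hspe1. They were searched on both strands for 2-unit matches, GAA and TTC in either order with any 2 bases between them, and for 3-unit matches, in which GAA and TTC alternate over 3 units at the same spacing and which contain overlapping 2-unit matches. The 2-unit match stood in windows of 5 of the 7 genes, and in 15.1% of all 32851 mouse windows of the same length. The 3-unit match stood in windows of 3 of the 7 (Hsph1, Hspd1 and Hspe1), and in 0.603% of all windows. A gene was counted if any of its windows held a match, while the shares are per window, so these are unlike units. Windows of a gene can also overlap, and Hspd1 and Hspe1 were counted for the same run. Neither form was found in the windows of Stip1 and Dnajb1. Below are the 250 bases before a start site of Hsph1 (chr5:149636337-149636586, minus strand), Dnaja1 (chr4:40722218-40722467, plus strand) and Hspa1a (chr17:34972157-34972406, minus strand), with the 2-unit match in capitals.
Hsph1: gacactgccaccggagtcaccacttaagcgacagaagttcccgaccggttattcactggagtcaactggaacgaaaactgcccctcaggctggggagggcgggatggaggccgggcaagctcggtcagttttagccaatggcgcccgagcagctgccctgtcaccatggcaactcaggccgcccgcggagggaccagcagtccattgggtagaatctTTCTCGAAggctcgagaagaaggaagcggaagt
Dnaja1: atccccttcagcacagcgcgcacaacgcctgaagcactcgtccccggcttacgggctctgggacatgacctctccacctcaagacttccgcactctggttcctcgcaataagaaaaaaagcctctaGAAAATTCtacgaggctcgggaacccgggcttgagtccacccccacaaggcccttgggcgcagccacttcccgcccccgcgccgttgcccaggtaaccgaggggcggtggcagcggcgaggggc
Hspa1a: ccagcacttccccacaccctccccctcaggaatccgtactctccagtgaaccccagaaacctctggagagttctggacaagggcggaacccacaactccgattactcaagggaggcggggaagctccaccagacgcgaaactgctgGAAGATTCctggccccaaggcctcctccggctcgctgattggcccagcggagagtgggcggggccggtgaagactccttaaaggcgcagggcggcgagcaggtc
Hsph1 held its 3-unit match after the start site, at chr5:149636288-149636300 on the minus strand. Hspd1 and Hspe1 lie head to head on chromosome 1, and their windows share 1 run of 18 bases at chr1:55088059-55088076. The run stands 89 bases before the Hspe1 start and 144 before an inner start of Hspd1, inside the Hspd1 gene. The window of the outer Hspd1 start held no match. Both runs are printed 5′ to 3′ on the strand of the named gene.
Hsph1 run: TTCTGGAAAGTTC
Hspe1 run: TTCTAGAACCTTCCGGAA
A match describes letters in a window and is not a measured binding site.

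Between 21335006 and 25027038 reads per library were assigned to genes, and no chaperone had fewer than 1090 reads in any library. Foxp3 stood at 898 to 920 CPM (reads scaled to one library total) in venetoclax Treg and 747 to 899 in vehicle Treg, and at 29.8 to 31.9 CPM in venetoclax Tcon and 27.3 to 32.4 in vehicle Tcon. Of 32 listed markers of other cell types 19 were measured in Treg and 20 in Tcon, and they summed to 7256 to 8579 normalized counts in venetoclax Treg and 8377 to 9292 in vehicle Treg. In Tcon they summed to 7376 to 9190 with venetoclax and 8446 to 9440 with vehicle. Most of these sums came from Pecam1 and Xbp1, which T cells also express, and Ncr1, Siglech and Pf4 were measured in neither subset. Markers of CD8 T cells, B cells, NK cells and myeloid cells were present at lower levels. Cd8b1 averaged 306 normalized counts in venetoclax Treg and 361 in vehicle Treg, and 401 in venetoclax Tcon and 428 in vehicle Tcon. Cd79b averaged 332 in venetoclax Treg and 343 in vehicle Treg, Klrb1c 449.6 in venetoclax Tcon and 386 in vehicle Tcon, and Itgam 218 in venetoclax Tcon and 166 in vehicle Tcon. In Treg Cd22 rose and Pecam1 fell, and none of the markers was called in Tcon by limma (7 and 3 had an unadjusted p under 0.05). Erythroid and platelet markers were highest in replicate 4 of both arms, summing to 886 in venetoclax Treg (62.8 to 215 in its other replicates) and 365 in vehicle Treg (77.9 to 96.7 in its other replicates). In Tcon replicate 4 had 248.9 with venetoclax (46.4 to 81.1 in the others) and 125 with vehicle (55.9 to 79 in the others). Levels of 3 further lists also varied between libraries. The Y-linked genes Ddx3y and Kdm5d were high in replicate 2 of both arms, at intermediate levels in venetoclax replicates 1 and 3 and at most 1 normalized count in the other 4 replicate codes, in both subsets. The sum of 20 immediate early genes was lower in every venetoclax library than in every vehicle library of Treg (45091 to 79811, against 85400.5 to 163849), while in Tcon the ranges of 37682 to 71919 and 65312 to 164523 overlapped. The sum of 24 cell cycle genes was higher in every venetoclax Tcon library (21601 to 25606) than in every vehicle Tcon library (16274 to 17620). What part these differences have in the chaperone results was not tested; values adjusted for the Y-linked level are given where they change a call.

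With venetoclax 8 of the 10 chaperones rose in Treg and 4 rose in Tcon. In Treg the 8 rose at an adjusted p under 0.05 by limma, against 10.7% of all 11067 genes, and none fell, against 8.81% (the 8 are the chaperones with an unadjusted p under 0.05). edgeR, DESeq2 and limma with the replicate block also called 8 higher and 0 lower in Treg, where they called 10.2%, 11.4% and 12.4% of all genes higher and 9.64%, 10.3% and 9.93% lower. In Tcon 4 of 10 rose (Hsph1, Dnaja1, Stip1 and Hspd1), against 3.92% of 11171 genes, and none fell, against 2.99% (7 had an unadjusted p under 0.05). edgeR and DESeq2 called 5 higher and 0 lower in Tcon, against 3.74% and 6.34% of all genes higher and 3.29% and 6.36% lower. With the replicate number as a block, 6 rose and 1 fell in Tcon, against 8.92% and 7.9% of all genes. That block assumes that venetoclax and vehicle libraries of a number belong together, which the labels do not state. The median log2 change of the 10 was 0.68 in Treg, where that of all genes was 0.0048, and 0.60 in Tcon, where that of all genes was 0.0022. The 10 genes took 0.757% to 1.08% of all reads in venetoclax Treg, against 0.511% to 0.703% in vehicle Treg. In Tcon they took 0.73% to 1.09% with venetoclax, against 0.424% to 0.805% with vehicle. A further alternative, chosen after seeing their intermediate Y-linked level, left out venetoclax replicates 1 and 3, in fits with 2 venetoclax libraries. It called 4 higher in Treg (Hsph1, Dnaja1, Stip1 and Hspd1), beside 371 of all 11067 genes. In Tcon it called 1 higher (Stip1), beside 91 of all 11171 genes.

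**Figure D1:**
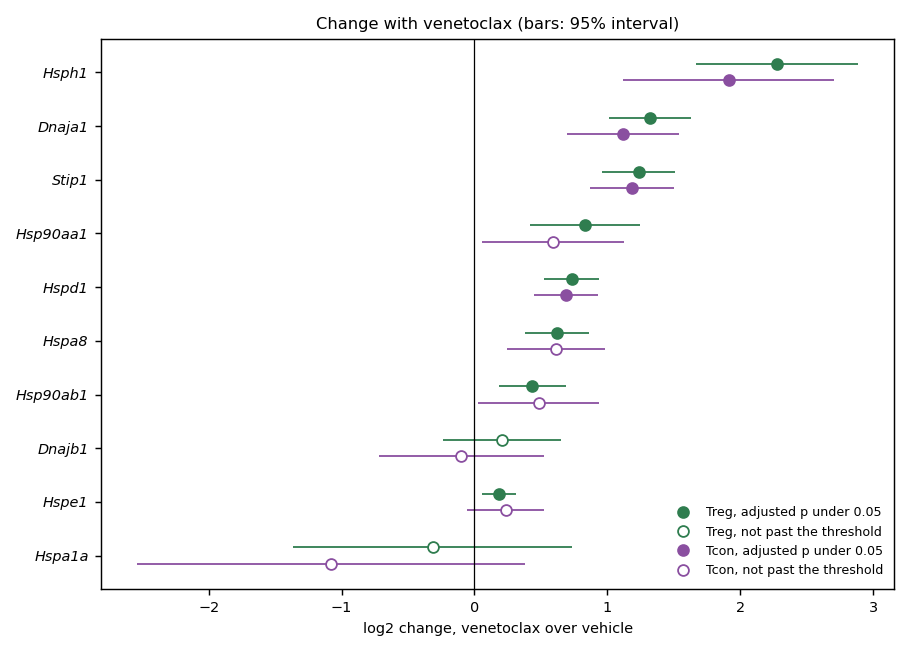
Log2 change of each chaperone with venetoclax over vehicle (horizontal axis) in Treg (upper, green) and Tcon (lower, purple), 4 libraries per group; bars are 95% intervals and filled points have a limma adjusted p under 0.05. Hsph1 has the largest change in both subsets (2.28 and 1.91), and Hspa1a and Dnajb1 have intervals that include 0 in both.

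Hspa8, the constitutive cytosolic HSP70 (HSC70; Entrez 15481; chr9:40801276-40805202), had 89554, 83653, 85885 and 67114 normalized counts in Treg replicates 1 to 4 with venetoclax, against 45844, 58295, 46974 and 61690.0 with vehicle. All 4 venetoclax libraries lay above all 4 vehicle libraries, and the mean rose 1.53-fold (log2 change of 0.62, SE 0.11, limma adjusted p = 0.00244). In Tcon it had 85580.5, 81962, 95677 and 68072 with venetoclax and 50416, 64188, 41371 and 62077 with vehicle, again without overlap (log2 change of 0.61, SE 0.17, limma adjusted p = 0.0528). The Tcon value just missed the threshold by limma. It passed with the replicate block (adjusted p = 0.013), by edgeR (0.0486) and by DESeq2 (0.00205). By limma it passed without vehicle replicate 3 (0.0394) and without replicates 3 of both arms (0.0277). Leaving out any other single library, it did not pass by limma (adjusted p of 0.0538 to 0.154). Nor did it with the Y-linked covariate (0.218) or without venetoclax replicates 1 and 3 (0.411). The 3 small nucleolar RNA genes (Snord14c, Snord14d and Snord14e) lie within Hspa8.

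Hspa1a, the stress-inducible cytosolic HSP70 (Entrez 193740; chr17:34969359-34972156), was not called in either subset. It had 3723, 4472, 1282 and 1763 normalized counts in venetoclax Treg and 2674, 7644, 1061 and 4156 in vehicle Treg, so the groups overlapped and replicate 3 was the lowest and replicate 2 the highest of both arms (log2 change of -0.32, SE 0.49, limma adjusted p = 0.693, 95% interval -1.37 to 0.74). In Tcon it had 7188, 7795, 1656 and 3796 with venetoclax and 10022, 18972, 2253 and 16336 with vehicle, with the same lowest and highest replicates (log2 change of -1.08, SE 0.66, limma adjusted p = 0.376, 95% interval -2.54 to 0.38). Within each replicate number the venetoclax Tcon library was lower, in 4 of 4 numbers, and with the number as a block the fall passed the threshold (limma adjusted p = 0.00476). It also passed without vehicle replicate 3 (log2 -1.75, adjusted p = 0.0263). In Treg the sign turned without vehicle replicate 2 (log2 0.12) and without venetoclax replicate 3 (0.0015). The coding sequence of Hspa1a is 99.4% identical to that of its neighbour Hspa1b over 1929 aligned columns, so reads of the pair may have been split or discarded in counting. Hspa1b itself is not among the genes measured in either subset.

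Hsph1, the HSP110 exchange factor of HSP70 (Entrez 15505; chr5:149616843-149636498), had the largest change of the 10. In Treg it had 11739, 8985, 12004 and 5092 normalized counts with venetoclax, against 1135, 2174, 1527 and 3097 with vehicle. The mean was 9455 ± 3213 with venetoclax and 1983 ± 858 with vehicle (SD, n = 4 each), a ratio of 4.77 (log2 change of 2.28, SE 0.28, limma adjusted p = 0.000275), and the lowest venetoclax library (replicate 4) lay above the highest vehicle library (replicate 4). In Tcon it had 9639, 8066, 10888 and 4798 with venetoclax and 1227, 2748, 1497 and 3993 with vehicle, again without overlap, a ratio of means of 3.53 (log2 change of 1.91, SE 0.36, limma adjusted p = 0.0109). With the Y-linked covariate, the change in Tcon was 1.58 on the log2 scale and missed the threshold (limma adjusted p = 0.0552), while the Treg change was 1.97 (adjusted p = 0.00104).

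Dnaja1, a J protein that serves HSC70 in the cytosol (Entrez 15502; chr4:40722468-40734965), had 24408, 22143, 28089 and 15944 normalized counts in venetoclax Treg, against 7243, 9925, 8499.7 and 10138 in vehicle Treg. In Tcon it had 21962, 19414, 29168 and 15421 with venetoclax and 7334, 11272, 9735 and 10740.4 with vehicle. The groups did not overlap in either subset, and Dnaja1 rose in Treg (log2 change of 1.32, SE 0.14, limma adjusted p = 0.000124) and in Tcon (log2 change of 1.12, SE 0.19, limma adjusted p = 0.00664). Exons of Dnaja1 overlap those of Smu1, Gm6297 and Mir207, and 1 RefSeq pseudogene is named for it. Dnajb1 (HSP40), the J protein that is induced with HSP70 by heat (Entrez 81489; chr8:83608175-83612653), was not called in either subset. It had 5105, 5289, 6434 and 3402 in venetoclax Treg and 3256, 5824, 3189.6 and 5526 in vehicle Treg (log2 change of 0.21, SE 0.21, limma adjusted p = 0.521, 95% interval -0.24 to 0.65). Its Tcon libraries had 5345, 5854, 7964 and 3862 with venetoclax and 5434, 8325, 3486 and 8022 with vehicle (log2 change of -0.10, SE 0.28, limma adjusted p = 0.885, 95% interval -0.72 to 0.52). The groups overlapped in both subsets, and the Tcon sign turned without vehicle replicate 2 (log2 0.06), vehicle replicate 4 (0.04) or venetoclax replicate 4 (0.08).

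Stip1, which encodes the adaptor HOP between HSP70 and HSP90 (Entrez 20867; chr19:7020696-7040026), had 7321, 6266, 6814 and 4459 normalized counts in venetoclax Treg, against 2199.5, 2598, 2610.3 and 3033 in vehicle Treg. Its Tcon libraries had 6532, 5909.5, 6866 and 4215 with venetoclax and 2276, 2645, 2381 and 2916 with vehicle. No vehicle library reached a venetoclax library in either subset, and Stip1 had the smallest adjusted p of the 10 in both (log2 change of 1.24, SE 0.13, limma adjusted p = 0.000104 in Treg; log2 change of 1.18, SE 0.14, limma adjusted p = 0.0012 in Tcon). It passed the threshold under every alternative run in both subsets, the one without venetoclax replicates 1 and 3 included.

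**Figure D2:**
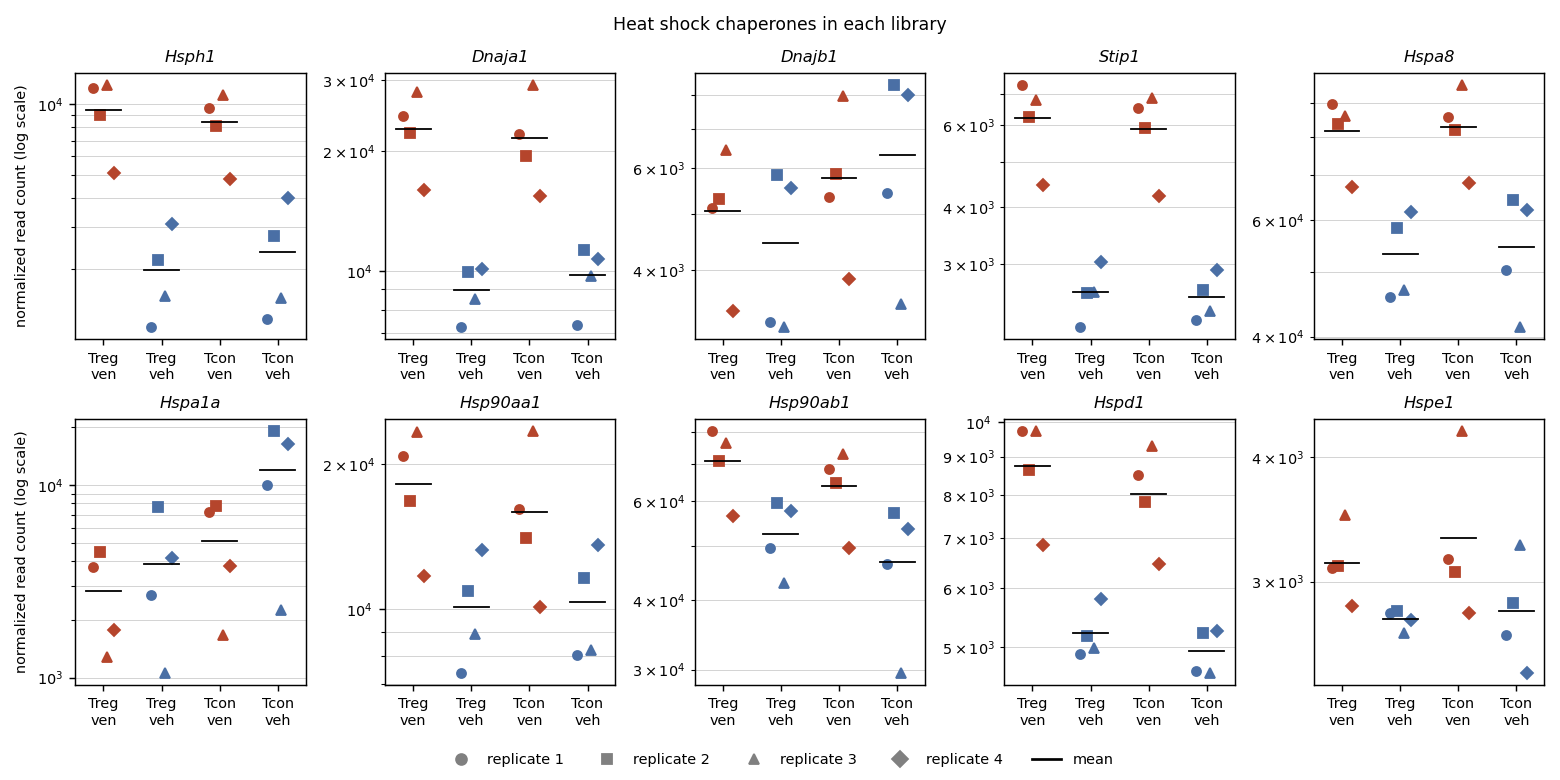
Normalized read count (vertical log axis, own range per gene) of the 10 chaperones in each of 16 libraries; red is venetoclax (ven), blue is vehicle (veh), marker shapes give the replicate number and black lines the group mean of 4 libraries. For Hsph1, Dnaja1, Stip1, Hspa8 and Hspd1 all venetoclax libraries lie above all vehicle libraries in both subsets, with venetoclax replicate 4 the lowest of its group.

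Both HSP90 genes rose in Treg, and in Tcon neither passed the threshold. Hsp90aa1, the inducible cytosolic HSP90 (Entrez 15519; chr12:110691036-110696395), had 20814, 16746, 23263 and 11712 normalized counts in venetoclax Treg and 7401, 10906, 8882 and 13281 in vehicle Treg. Venetoclax replicate 4 lay below vehicle replicate 4, so 3 of 4 venetoclax libraries were above all vehicle libraries (log2 change of 0.83, SE 0.19, limma adjusted p = 0.00973). Its Tcon libraries had 16144, 14080.1, 23381 and 10139 with venetoclax and 8058, 11589, 8246 and 13559.9 with vehicle, with overlap at the same replicate (log2 change of 0.59, SE 0.24, limma adjusted p = 0.179, 95% interval 0.06 to 1.13). Hsp90ab1, the constitutive cytosolic HSP90 (Entrez 15516; chr17:45567778-45573261), had 80190.3, 70795, 76237 and 56503 in venetoclax Treg and 49555, 59557, 42828 and 57688 in vehicle Treg. It rose in Treg (log2 change of 0.44, SE 0.12, limma adjusted p = 0.0211), but the call was lost without vehicle replicate 1 (adjusted p = 0.0582), vehicle replicate 3 (0.0608), venetoclax replicate 1 (0.0744) or venetoclax replicate 3 (0.0575), and with the Y-linked covariate (0.0939). Its Tcon libraries had 68491, 64678, 73004 and 49544 with venetoclax and 46345, 57216, 29630.4 and 53548 with vehicle (log2 change of 0.48, SE 0.21, limma adjusted p = 0.2, 95% interval 0.02 to 0.94). In both subsets venetoclax replicate 4 fell within the vehicle range and the other 3 lay above it. Without replicate 3 of both arms, the replicate with the lowest immediate early sum among venetoclax libraries, Hsp90aa1 and Hsp90ab1 were not called in Treg (adjusted p = 0.0701 and 0.131). The coding sequences of the pair are 75.6% identical.

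Of the mitochondrial chaperonin pair, Hspd1 rose in both subsets and Hspe1 in Treg. Hspd1, which encodes HSP60 (Entrez 15510; chr1:55077833-55088243), had 9726, 8625, 9736 and 6844 normalized counts in venetoclax Treg, against 4900.2, 5183, 4991 and 5801 in vehicle Treg. Its Tcon libraries had 8505, 7815, 9312 and 6464 with venetoclax and 4642, 5224, 4624 and 5258 with vehicle. The groups did not overlap, and Hspd1 rose 1.67-fold in Treg (log2 change of 0.73, SE 0.10, limma adjusted p = 0.000366) and 1.63-fold in Tcon (log2 change of 0.69, SE 0.11, limma adjusted p = 0.00465) as ratios of means. Its head-to-head partner Hspe1, which encodes HSP10 (Entrez 15528; chr1:55088148-55091317), had 3095, 3111, 3504 and 2832 in venetoclax Treg and 2787, 2803, 2664 and 2742 in vehicle Treg. These groups did not overlap either, but the rise was 1.14-fold (log2 change of 0.19, SE 0.06, limma adjusted p = 0.0421), and leaving out any vehicle library (adjusted p = 0.0753, 0.0511, 0.105 and 0.0651 for vehicle replicates 1 to 4) or venetoclax replicate 1, 2 or 3 (0.0826, 0.0742 and 0.117) ended the call. Upper quartile scaling (0.0797) and the Y-linked covariate (0.164) ended it too. In Tcon Hspe1 had 3158, 3068, 4252 and 2791 with venetoclax and 2649, 2855, 3262 and 2429 with vehicle, with overlap (log2 change of 0.23, SE 0.13, limma adjusted p = 0.328, 95% interval -0.05 to 0.52). It was higher with venetoclax in 4 of 4 replicate numbers and passed with the number as a block (adjusted p = 0.02). First exons of Hspd1 and Hspe1 overlap on opposite strands, whether counting used strand is not known from the labels, and RefSeq names 5 pseudogenes for Hspd1 and 6 for Hspe1.

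Levels of the 10 genes varied among the venetoclax libraries, mostly in step. Replicate 4, the venetoclax library with the most erythroid and platelet marker counts in both subsets, was the lowest venetoclax library for 9 of 10 genes in Treg and for 9 of 10 in Tcon. Vehicle replicate 4 also had the most of these marker counts in its arm. In Treg it was the highest vehicle library for Hsph1, Dnaja1, Stip1, Hspa8, Hsp90aa1 and Hspd1, and vehicle replicate 2 was for the other genes. In Tcon it was the highest for Hsph1, Stip1, Hsp90aa1 and Hspd1 and the lowest for Hspe1. The part of these markers in either order was not tested. Venetoclax replicate 3 was the highest venetoclax library for 6 of 10 in Treg and 9 of 10 in Tcon. All venetoclax libraries were above all vehicle libraries for 6 of 10 genes in Treg, against 12% of all genes, and for 5 of 10 in Tcon, against 8.78%. Deviations from the group means, over 8 libraries of a subset that share those means, were positively correlated for each of the 28 pairs that leave out Hspa1a and Hspe1 (Pearson's r of 0.73 to 0.98 in Treg and 0.50 to 0.98 in Tcon, given as a description). Over all 45 pairs 44 were positive in Treg and 42 in Tcon. Pairs of Hspa1a with the other genes had a median r of 0.27 in Treg and 0.16 in Tcon. Those of Hspe1 had a median r of 0.64 in Treg and 0.11 in Tcon, where the lowest was -0.72, with Hspa1a. Dnajb1, which did not pass the threshold for treatment, deviated with the other genes, with a median r of 0.89 in Treg and 0.80 in Tcon. The immediate early sum was lowest in replicate 3 of the venetoclax arm in both subsets and of the vehicle arm in Tcon, where Hspa1a was lowest too. Fos, an immediate early transcription factor gene, was at 525 normalized counts in replicate 3 of venetoclax Treg, where the other venetoclax replicates had 3846 to 8255 and vehicle Treg had 8936 to 24721. Among 20 immediate early genes 12 fell and 1 rose in Treg, where 8.81% of all genes fell and 10.7% rose. In Tcon 8 of the 20 fell, where 2.99% of all genes fell, while 14 fell and 1 rose in the fit with the replicate block, against 7.9% and 8.92%. Their part in the Hspa1a values was not tested.

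**Figure D3:**
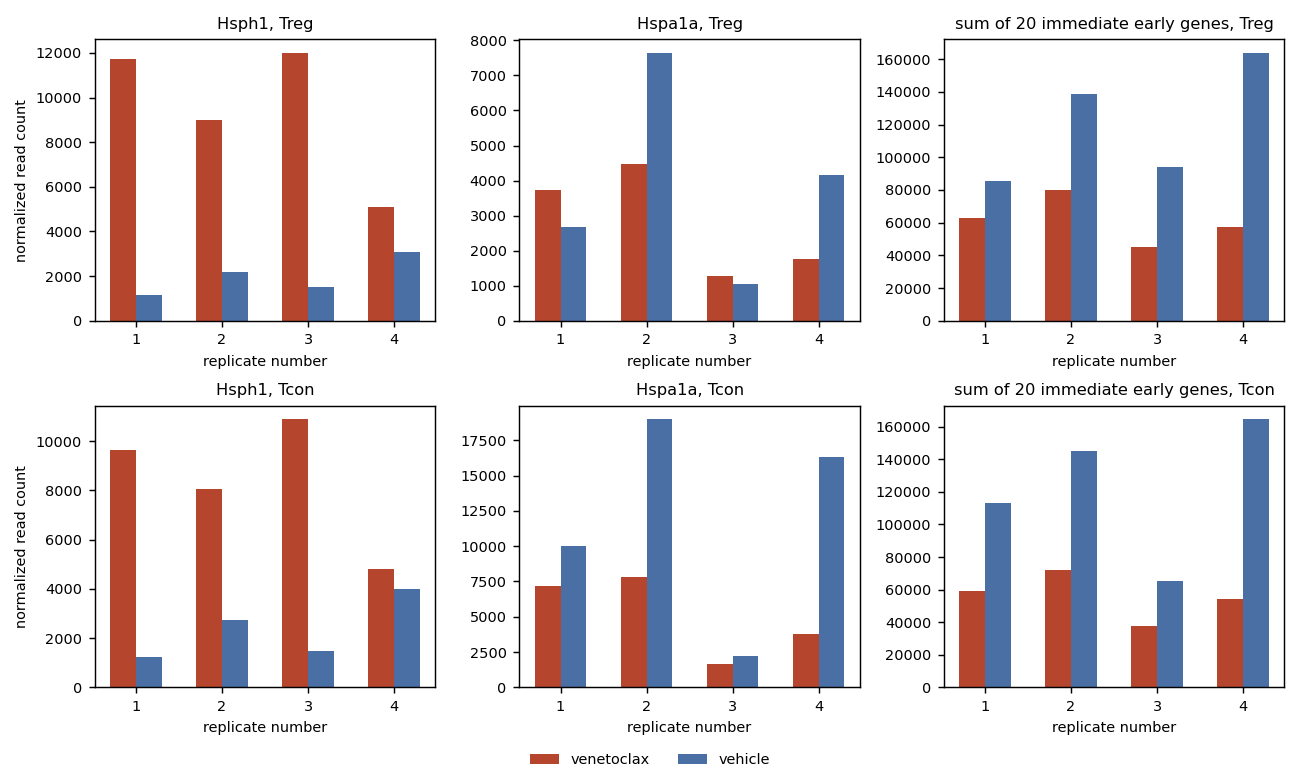
Normalized read count of Hsph1 and Hspa1a and the sum of 20 immediate early genes (vertical axes from 0) by replicate number, venetoclax (red) left of vehicle (blue), in Treg (top) and Tcon (bottom), 1 library per bar. Hsph1 is higher with venetoclax at every number, while Hspa1a is lowest in replicate 3 of both arms in both subsets.

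Whether the change with venetoclax differed between the subsets was tested as the interaction of subset and treatment over all 16 libraries. None of the 10 chaperones differed by limma, against 1.3% of 10774 genes called (0 had an unadjusted p under 0.05, and edgeR and DESeq2 called 0, against 1.31% and 2.74%). The intervals of the difference, Treg minus Tcon on the log2 scale, ran from -0.77 to 1.50 for Hsph1, from -0.42 to 0.52 for Stip1 and from -0.30 to 0.38 for Hspd1. The replicate codes pair Treg and Tcon libraries, and with the code as a block the unadjusted p of 5 chaperones lay under 0.05 and 1, Hsph1, passed the threshold, against 3.61% of all genes. The Hsph1 counts of Treg over Tcon from the same code differed on the log2 scale by 0.28, 0.16, 0.14 and 0.086 in venetoclax codes 1 to 4, against -0.11, -0.34, 0.029 and -0.37 in vehicle codes 1 to 4. All 4 venetoclax codes lay above all 4 vehicle codes, and the difference of the changes was 0.36 (95% interval 0.17 to 0.56, limma adjusted p = 0.0451). The fit without the block takes the Treg and Tcon libraries of a code as independent, which widens its intervals here. The SE of the Hsph1 difference was 0.54 without the block and 0.089 with it. It rested on the full set of codes: without both libraries of 1 code, an alternative added after seeing the data, it missed the threshold for 7 of 8 codes (0.31 to 0.39, adjusted p of 0.0607 to 0.161) and passed without vehicle code 3 (0.44, adjusted p = 0.00343). Without vehicle code 3 the blocked fit called 3 chaperones, Dnajb1 (0.42, adjusted p = 0.00462) and Hspa1a (0.92, 0.00626) besides Hsph1, and without any other code it called 0. The share of all genes called in these fits is not given here. For Hspa1a the blocked difference was 0.76 (95% interval 0.33 to 1.19, adjusted p = 0.0575). Intervals of Stip1 (-0.09 to 0.19), Hspa8 (-0.23 to 0.24), Hspd1 (-0.09 to 0.17) and Hspe1 (-0.27 to 0.17) under the block included 0.

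**Figure D4:**
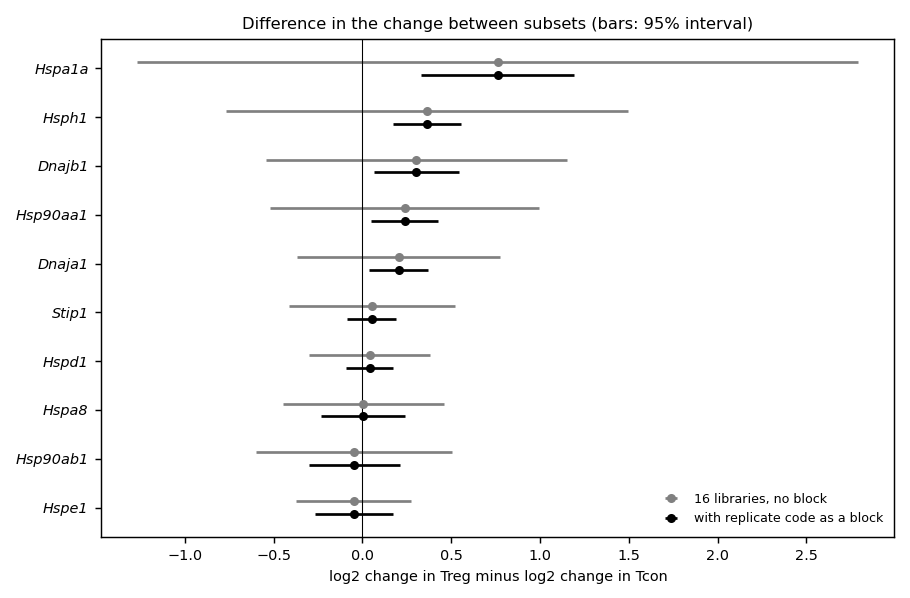
Difference of the log2 change with venetoclax, Treg minus Tcon (horizontal axis), for each chaperone, from 16 libraries without a block (gray) and with the replicate code as a block (black); bars are 95% intervals. Without the block all intervals include 0, and with it those of Hspa1a, Hsph1, Dnajb1, Hsp90aa1 and Dnaja1 lie above 0.

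Treg and Tcon were normalized in separate tables, so their levels are compared as a description only. Per kilobase of exon, Hsp90ab1 and Hspa8 were the most abundant of the 10 in all 4 groups, Hsp90ab1 at 1006 ± 140 CPM per kilobase in venetoclax Treg and 737 ± 114 in vehicle Treg, and Hspa8 at 807 ± 92.2 and 521 ± 80.1 in the same groups (SD, n = 4). In Tcon Hsp90ab1 was at 904 ± 133 with venetoclax and 662 ± 193 with vehicle, and Hspa8 at 817 ± 101 and 538 ± 122. These neighbours in the order overlap within their spread. Hsph1 was the lowest of the 10 in vehicle Treg (11.5 ± 4.98) and in vehicle Tcon (13.9 ± 7.71), and Hspa1a was the lowest in venetoclax Treg (40.2 ± 21.7), next to Hsph1 (55.3 ± 18.6). Hspa1a differed most between subsets: it averaged 119 ± 64.3 CPM in venetoclax Treg and 218 ± 124 in venetoclax Tcon, and 164 ± 120 in vehicle Treg and 511 ± 327 in vehicle Tcon (SD, n = 4). It was lower in Treg in every replicate code, as was Dnajb1, although the ranges over libraries overlapped. Hsp90ab1 was higher in Treg in every code, 1.11-fold in either arm. In venetoclax mice 6 of 10 genes had the higher mean in Treg, and 3 of 10 without Tcon replicate 4. In vehicle mice 3 of 10 had it, with 5 of 10 without Treg replicate 1 or 3 and 6 of 10 without Tcon replicate 2 or 4.

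Other genes of the chaperone network, from 7 lists with 83 of 88 genes measured in each subset, included further rises. Of these 83, 18 rose and 2 fell in Treg (21.7% and 2.41%, beside 10.7% and 8.81% of all genes), and 12 rose and 1 fell in Tcon (14.5% and 1.2%, beside 3.92% and 2.99%; 18 and 4 with the replicate block). Their median log2 change was 0.04 in Treg and 0.05 in Tcon. The HSP90 co-chaperones held more of these rises than any other of the 7 lists, with 8 of 16 higher in Treg and 6 of 16 in Tcon, and none lower by limma (the replicate block also called none lower, edgeR and DESeq2 called 1 lower in Treg and none in Tcon; 9 and 8 of the 16 had an unadjusted p under 0.05). Chordc1, a zinc-binding HSP90 partner, rose to 5554 ± 1018 normalized counts in venetoclax Treg, against 2740 ± 275 in vehicle Treg (SD, n = 4; log2 change of 1.00, SE 0.11, limma adjusted p = 0.000167). In Tcon it was at 5860 ± 817 with venetoclax and 2951 ± 408 with vehicle (log2 change of 0.99, SE 0.12, limma adjusted p = 0.00132). Ahsa1, the activator of the HSP90 ATPase, rose by 0.77 in Treg and 0.82 in Tcon on the log2 scale, and Fkbp4, an immunophilin of steroid receptor complexes, by 0.68 and 0.76. Ptges3 (p23), which holds the closed HSP90 dimer, rose by 0.76 in Treg and 0.56 in Tcon, where its call was lost without any one of 6 of the 8 libraries (adjusted p of 0.0627 to 0.11, vehicle replicate 3 and venetoclax replicate 4 being the exceptions). With the Y-linked covariate Ptges3 was not called in Tcon either (limma adjusted p = 0.15). Without Tcon venetoclax replicate 1, or with the Y-linked covariate, the Tcon count of the HSP90 co-chaperones was 3.

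Among other HSP70 proteins and their exchange factors, 5 of 16 rose in Treg and 3 of 17 in Tcon, with none lower by limma without the block in either (with the replicate block limma called 4 higher and 2 lower in Tcon, DESeq2 called 2 lower there and edgeR 1, and none of these called one lower in Treg; 5 and 6 had an unadjusted p under 0.05). St13 (HIP), a cofactor of HSP70, rose by 0.47 in Treg and 0.59 in Tcon, and Hspa4l, an HSP110 relative, by 0.72 and 0.71 (limma adjusted p of 0.000305, 0.00111, 0.000532 and 0.00361 in that order). Bag3, an HSP70 cofactor in stressed cells, rose in Treg (443 ± 94.3 normalized counts with venetoclax, 273 ± 76.6 with vehicle; log2 0.72, adjusted p = 0.0172), and in Tcon had 186 ± 29.6 with venetoclax and 247 ± 107 with vehicle (log2 -0.31, adjusted p = 0.576). The Bag3 call in Treg was lost without venetoclax replicate 1 (0.06) or 3 (0.0504) and with the Y-linked covariate (0.0773), and that of Hspa13, a microsomal HSP70 (log2 0.28), without vehicle replicate 1, 2 or 3 or venetoclax replicate 1 or 3 (0.0509 to 0.0816). The count of 5 became 2 without venetoclax replicate 1 or 3 and 3 without vehicle replicate 1 or 2. Of 15 other J proteins, Dnaja4 (log2 0.98, adjusted p = 0.00106) and Dnajb2 (0.38, 0.00968) rose and Dnajc9, a histone cochaperone (-0.24, 0.0075), fell in Treg. In Tcon none of the 15 was called by limma, edgeR or DESeq2 (2 had an unadjusted p under 0.05), and with the replicate block Dnajc9 fell there too (log2 -0.21, limma adjusted p = 0.0403).

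Of 14 genes of the cytosolic chaperonin TRiC and of prefoldin, 3 rose in each subset, the TRiC subunits Cct3, Cct6a and Tcp1 (log2 0.22, 0.38 and 0.23 in Treg, and 0.52, 0.45 and 0.33 in Tcon). The Tcon count was 7 with the replicate block, 1 without vehicle replicate 1, 2 or 4 or venetoclax replicate 1, 2 or 3, and 5 without vehicle replicate 3. In Treg the Cct3 call was lost without vehicle replicate 1 or 2 or venetoclax replicate 1, 2 or 3 (adjusted p of 0.0551 to 0.0767). The Y-linked covariate ended the call of Cct3 in Treg (limma adjusted p = 0.0552). It also ended those of Cct6a and Tcp1 in Tcon (0.127 and 0.133). None of 15 other mitochondrial chaperones and quality control proteases was called in either subset by limma, edgeR or DESeq2 (3 had an unadjusted p under 0.05 in each). The list of small heat shock proteins had 3 of its 5 genes measured in Treg and 2 in Tcon. From this list, which was drawn up by name, Hspb11 fell in Treg (log2 -0.43, limma adjusted p = 0.00904). Hspb6, at about 40.3 normalized counts with venetoclax and 60.9 with vehicle, was lower in Tcon (log2 -0.58, limma adjusted p = 0.0479). The Hspb6 call was lost without any single library (0.057 to 0.13) and with the Y-linked covariate (0.0864). Hsf1, the heat shock factor itself, had 1631 ± 31.3 normalized counts in venetoclax Treg and 1604 ± 169 in vehicle Treg (log2 0.03), and 1544 ± 91.6 in venetoclax Tcon and 1499 ± 258 in vehicle Tcon (log2 0.06). Of the 4 genes of the HSF1 list none was called in either subset by limma, edgeR or DESeq2 (1 in Tcon with the replicate block; 0 in Treg and 1 in Tcon at an unadjusted p under 0.05).

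**Figure D5:**
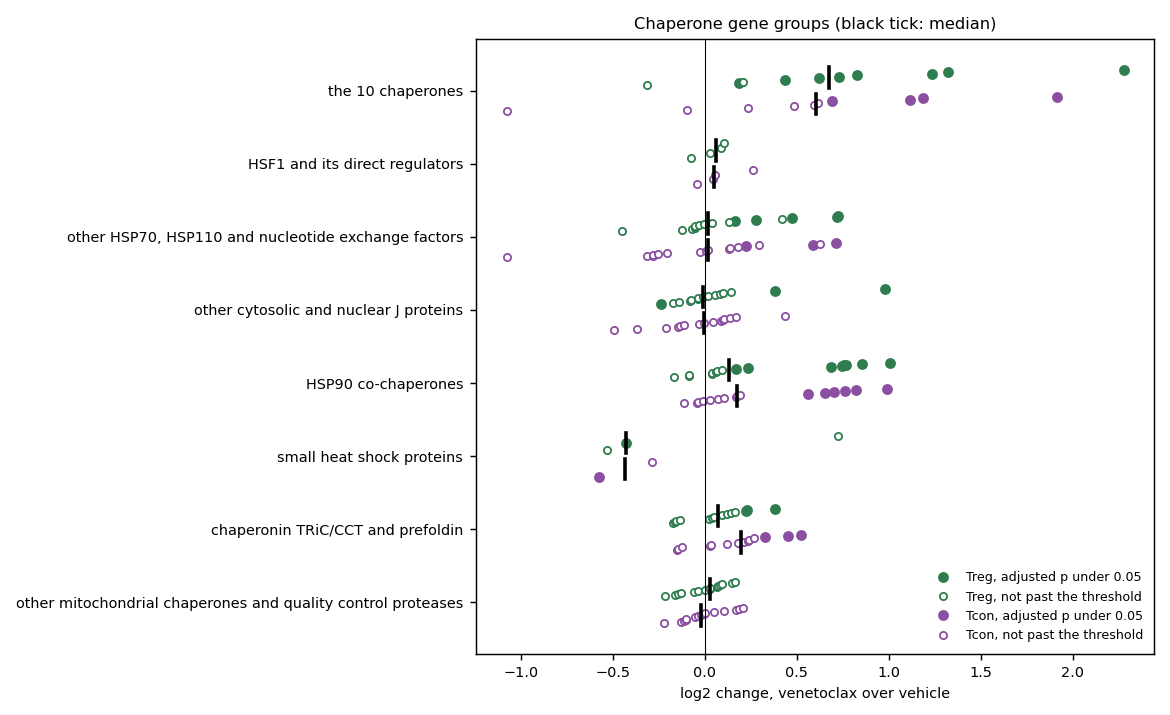
Log2 change with venetoclax over vehicle (horizontal axis) of every measured gene of the 10 chaperones and of 7 further chaperone lists, in Treg (upper, green) and Tcon (lower, purple); filled points have a limma adjusted p under 0.05 and black ticks are medians. HSP90 co-chaperones hold 8 called rises in Treg and 6 in Tcon, and the mitochondrial list holds none.

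Genes outside the 10 whose levels over the 8 libraries of a subset were most like the mean of the 10 were Copg1, Gprasp1, Plekhm1, Dclre1c and Ccar1 in Treg (Pearson's r of 0.97 to 0.98 among 9755 genes) and 1700102P08Rik, Got1, Ptov1, Wdcp and Jmjd8 in Tcon (0.97 to 0.98 among 9431 genes). The treatment groups are part of these correlations, which are given as a description. Gprasp1 had a log2 change of 0.37 in Treg (limma adjusted p = 0.012), and Got1, the cytosolic aspartate aminotransferase, one of 0.42 in Tcon (0.0624).

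The authors' deposited table gives for Treg a log2 fold change of 2.11 for Hsph1, 1.28 for Dnaja1 and 1.20 for Stip1, with adjusted p of 7.66e-07, 9.67e-10 and 7.46e-11. For Tcon the authors' deposited table gives 1.58, 1.07 and 1.16 for the same genes, and an adjusted p of 0.00226 for Hspa8. Adjusted p in the authors' deposited table lies under 0.05 for 8 chaperones in Treg and 5 in Tcon, beside 2270 and 1257 of all genes. The deposited Hspa1a changes were -0.019 in Treg and -0.041 in Tcon, with deposited adjusted p of 0.682 and 0.342. DESeq2 on recovered reads gave larger changes of -0.47 and -1.23 at similar adjusted p (0.663 and 0.306). How the deposited fold changes were estimated is not given, so their size cannot be set against the limma values.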

How the data were processed

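RNA-seq gave 16 libraries, 4 per group, from an Illumina NovaSeq (per the labels' protocols). HISAT2, SAMtools and the build mm10 are named in the submitters' processing notes, while the sources used here give no versions, read counter, annotation or strand setting. Treg and Tcon come in separate deposited tables, whose library columns hold the authors' signal per gene, the normalized read count: within a library all values are whole multiples of one smallest step (tolerance 0.01), from which reads were recovered. The authors' mean, log2 fold change and p-value columns are quoted only where the authors' deposited table is named, and the test behind them is not given. After removing repeated lines (40 in Tcon, 43 in Treg) the tables held 11171 Tcon and 11067 Treg genes, and 18 Treg symbols stored as dates were restored.

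Since the values are normalized counts, limma 3.58.1 (R 4.3.3) took the place of the edgeR test planned for raw counts: log2(normalized count + 1), empirical Bayes with a mean-dependent prior, and Benjamini-Hochberg adjustment over all genes of a fit with a threshold of 0.05. edgeR 4.0.16 (quasi-likelihood) and DESeq2 1.42.0 on recovered reads were alternatives, beside another pseudocount (5), a filter on the mean (50), TMM and upper quartile scaling, a replicate block, each library left out, replicates 3 left out and a Y-linked covariate. The limma code was tested on simulated data. Levels across genes are CPM per kilobase of GENCODE M21 exon. Gene coordinates are 1-based, from RefSeq on GRCm38.p6 (mm10), which matched 11168 Tcon and 11064 Treg genes by Entrez identifier.

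Deviations of same-numbered venetoclax and vehicle libraries from their group means correlated at 0.12, 0.56, 0.61 and 0.27 in Tcon. The labels link no venetoclax library to a vehicle library, and libraries of different numbers were not compared. A pairing by number is therefore an assumption, and the replicate block that uses it is an alternative only. Treg and Tcon libraries of a code correlated at 0.46 to 0.77. All p-values measure the spread between libraries. The chaperones and the gene lists were chosen with earlier results of these data known. Apart from the 10 chaperones, the text names up to 4 called genes per list, Hsf1, the 5 genes most like the mean of the 10, and Ddx3y, Kdm5d and Fos as examples. The markers named with values were chosen after their values were seen.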

Additional observations from a re-analysis of the deposited data

Results flagged for a closer look

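The change of Hsph1, the HSP110 exchange factor, differed between the subsets when the replicate code was used as a block: its log2 change with venetoclax was 2.28 in Treg and 1.91 in Tcon, a difference of 0.36 (Treg minus Tcon, limma adjusted p = 0.0451). What brought it up is that the difference itself was tested and passed the threshold, the only one of the 10 chaperones to do so with the block. It did not pass without the block (adjusted p = 0.938, 95% interval -0.77 to 1.50), and leaving out both libraries of any code but vehicle code 3 ended the call. No single library of the 10 chaperones stood off from the other 3 of its group by Dixon's criterion, in 40 groups examined.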

How the results depend on the processing

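Of 10 chaperones, the number called in Tcon was 7 with the replicate block (pairing by number), beside 1880 of all 11171 genes. Without venetoclax replicates 1 and 3 it was 1, beside 116. In Treg it was 5 without replicates 3, beside 1028 of all 11067 genes, and 4 without venetoclax replicates 1 and 3, beside 614. For the difference it was 1 with the block, beside 389 of all 10774 genes. Leaving out 1 library gave 4 to 6 in Tcon, 6 to 8 in Treg and 0 for the difference. Over all genes these fits called 306 to 1244, 1327 to 2198 and 58 to 203, in that order. The number with the higher mean in Treg ranged from 3 to 9 (venetoclax) and 2 to 6 (vehicle). In Treg same-numbered venetoclax and vehicle libraries deviated with correlations of -0.039, 0.41, 0.26 and 0.39, and the block left 8 called. In neither subset do the labels state that the numbers pair the libraries. The block changed no other call of the 10 than those given.

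Signs turned as follows on the log2 scale. Dnajb1 in Treg was -0.063 without replicates 3, -0.10 with the Y-linked covariate and -0.012 without venetoclax replicates 1 and 3; leaving out 1 library in Tcon it ran from -0.36 to 0.077, and Hspa1a in Treg from -0.83 to 0.12. For Treg minus Tcon, Hspa8 was -0.0097 with upper quartile scaling, Hsp90ab1 0.0012 by edgeR and 0.10 without replicates 3, and Hspe1 0.038 without venetoclax replicates 1 and 3. Leaving out 1 library this difference ran from -0.10 to 0.20 for Stip1, -0.086 to 0.13 for Hspa8, -0.16 to 0.16 for Hsp90ab1, -0.059 to 0.15 for Hspd1 and -0.13 to 0.077 for Hspe1. With the code as a block and both libraries of a code left out, Hspa8 was -0.032 (vehicle 1), -0.033 (vehicle 2), -0.023 (venetoclax 1) and -0.011 (venetoclax 2), Hsp90ab1 0.065 (vehicle 3) and Hspe1 0.015 (vehicle 4) and 0.022 (venetoclax 3). The causes were not tested.

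Over all genes, 772 were called in Tcon (1880 with the block, 1364 by DESeq2, 1443 without replicates 3, 342 with the Y-linked covariate, 116 without venetoclax replicates 1 and 3, 306 to 1244 leaving out 1 library, without venetoclax replicate 1 and vehicle replicate 3). In Treg 2164 were called (1189 higher and 975 lower, against 969 and 1348 with upper quartile scaling; 1028 without replicates 3, 614 without venetoclax replicates 1 and 3, 1327 to 2198 leaving out 1 library, without venetoclax replicate 1 and vehicle replicate 2). For the difference 140 were called (389 with the block, 295 by DESeq2, 4 without venetoclax replicates 1 and 3, 58 to 203 leaving out 1 library, without Treg venetoclax replicate 2 and Tcon vehicle replicate 3). Each chaperone had at least 1090 reads per library.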
